A study of Mus musculus with 15 samples.

Results

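Angiotensin II is a peptide hormone that constricts vessels, and L-NAME blocks the nitric oxide synthases. Both were given together to mice of the GFP-AL group, while GFP-Veh mice received saline, and the RNA of cerebral vessels isolated from the brain was sequenced. This comparison asks how the vessels' transcripts responded to the drugs. It uses 10 of the 15 libraries of the series, 5 of GFP-AL and 5 of GFP-Veh, and covers the 13082 genes, of 22526 gene symbols in the deposited table, whose mean over the 15 libraries was at least 1 FPKM. FPKM is by definition a fragment count divided by transcript length in kilobases and by library depth, so that levels can be compared between genes. Since 5.99% of the deposited values were below 0, they had been altered by a further step that is not known. Comparisons of level between genes are therefore approximate. All mice were wild-type C57BL/6 of 8 months, and both groups had received AAV-GFP, an adeno-associated virus carrying green fluorescent protein, by stereotactic injection. Injection and virus are therefore shared by drug and saline mice, and mice without virus, or with only 1 of the drugs, were not analysed here. The promoter of the virus, the doses and the length of treatment are stated in no label used here. The remaining 5 libraries (LH3-AL: AAV-LH3 followed by the same drugs) are not compared here. They entered the filter on mean FPKM, the estimate of the spread between libraries, the principal components and the alternative scalings. The labels do not say whether each library came from its own mouse, so p-values measure only the spread between these samples, which may be technical.

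Brain vessels are lined by endothelium whose tight junctions and carriers form the blood-brain barrier, wrapped by pericytes on capillaries and by smooth muscle on arterioles. Endothelial genes differ along the tree, so that arterial, capillary and venous segments each have typical transcripts, and it is mainly the venous segment through which leukocytes leave the blood. Cytokines of the interleukin-6 family signal through the receptor gp130, the JAK kinases and the factor STAT3, while tumour necrosis factor, interleukin-1 and Toll-like receptors act through NF-kappaB. Both routes raise acute-phase genes in liver and in brain endothelium, and both switch on their own inhibitors. Members of these and other pathways are described below list by list, each list holding genes known for that role. The choice of lists and members was made with earlier results of these data known.

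Promoter sequences are shown for 3 of the genes at the head of the response, since STAT, NF-kappaB and C/EBP factors are the known regulators of the acute-phase class. Each is the RefSeq window on GRCm38.p6 from 250 bases before to 50 after the annotated start, written 5′ to 3′ on the strand of the gene. Capitals mark, on either strand, the letters TTCNNNGAA (STAT), GGG and TTTCC with any 2 bases between them (NF-kappaB) or TTGCNNAA (C/EBP). Over 32817 promoter windows of this length, 8.29% held the STAT letters, 1.63% the NF-kappaB letters and 10.8% the C/EBP letters. The Socs3 window (chr11:117969317-117969616, minus strand) held 1 STAT match, that of Serpina3n (chr12:104406458-104406757, plus strand) 1 NF-kappaB match and that of Lcn2 (chr2:32387690-32387989, minus strand) 1 C/EBP match. The Lrg1 window held none of these.
Socs3: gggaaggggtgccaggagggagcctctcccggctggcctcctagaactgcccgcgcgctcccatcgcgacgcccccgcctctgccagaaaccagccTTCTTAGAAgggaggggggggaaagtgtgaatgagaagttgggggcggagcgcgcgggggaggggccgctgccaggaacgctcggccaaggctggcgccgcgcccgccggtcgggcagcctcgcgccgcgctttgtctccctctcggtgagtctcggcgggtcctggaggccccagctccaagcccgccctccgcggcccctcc
Serpina3n: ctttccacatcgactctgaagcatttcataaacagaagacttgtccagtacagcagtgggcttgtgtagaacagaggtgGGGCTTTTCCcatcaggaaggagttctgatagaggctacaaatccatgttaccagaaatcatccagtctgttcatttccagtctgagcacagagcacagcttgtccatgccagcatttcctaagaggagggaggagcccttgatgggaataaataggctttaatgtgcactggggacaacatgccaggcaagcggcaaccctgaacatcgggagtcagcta
Lcn2: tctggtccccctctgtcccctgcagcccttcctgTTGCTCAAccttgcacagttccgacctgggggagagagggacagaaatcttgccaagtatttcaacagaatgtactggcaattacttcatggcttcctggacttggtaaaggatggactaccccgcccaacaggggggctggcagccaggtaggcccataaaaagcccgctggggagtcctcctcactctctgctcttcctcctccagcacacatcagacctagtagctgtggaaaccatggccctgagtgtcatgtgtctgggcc
The second set stands for the chaperone genes that moved the other way. Capitals mark GAANNTTC, the letters of a pair of facing heat shock units, which 7.86% of all windows held. The windows are Hsph1 (chr5:149636287-149636586, minus strand; 1 of its 2 windows), Chordc1 (chr9:18292017-18292316, plus strand) and Dnaja1 (chr4:40722218-40722517, plus strand; 1 of its 3 windows, of which the other two held no match). The window of Stip1, another chaperone gene that fell, held none either, so the windows shown are those with a match. A match is a description of the letters only.
Hsph1: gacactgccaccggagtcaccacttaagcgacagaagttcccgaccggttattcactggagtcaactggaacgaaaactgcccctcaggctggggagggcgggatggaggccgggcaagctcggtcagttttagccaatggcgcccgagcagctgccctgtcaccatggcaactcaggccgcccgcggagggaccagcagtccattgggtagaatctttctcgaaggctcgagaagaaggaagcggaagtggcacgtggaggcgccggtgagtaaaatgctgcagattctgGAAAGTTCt
Chordc1: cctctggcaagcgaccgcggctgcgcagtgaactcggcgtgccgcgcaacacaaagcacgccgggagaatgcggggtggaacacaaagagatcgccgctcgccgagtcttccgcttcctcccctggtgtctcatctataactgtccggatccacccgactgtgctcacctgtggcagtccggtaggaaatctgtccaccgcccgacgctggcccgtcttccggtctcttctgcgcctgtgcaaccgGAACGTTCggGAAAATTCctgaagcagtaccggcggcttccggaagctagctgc
Dnaja1: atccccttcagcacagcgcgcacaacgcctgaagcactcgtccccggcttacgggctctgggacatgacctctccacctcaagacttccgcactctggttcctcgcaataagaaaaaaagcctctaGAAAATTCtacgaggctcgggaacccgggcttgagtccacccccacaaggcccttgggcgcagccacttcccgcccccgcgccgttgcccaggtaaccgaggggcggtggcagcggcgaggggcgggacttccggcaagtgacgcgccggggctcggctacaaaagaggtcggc

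Estimated depth was 13.5 to 29.7 M fragments in GFP-Veh, of which replicate 5 was the deepest and the other 4 reached at most 16, and 21.1 to 27.8 M in GFP-AL. Endothelial markers were checked first: Cldn5 averaged 982 FPKM in GFP-Veh, Flt1 199 and Pecam1 112, and the 12 endothelial markers summed to 2279 to 3155 FPKM over the GFP-Veh libraries and 2723 to 3919 in GFP-AL. The 9 neuron markers summed to 121 to 196 FPKM over the GFP-Veh libraries and 103 to 214 in GFP-AL. Other cells were well represented. The 10 choroid plexus markers summed to 3900 to 9463 FPKM over the GFP-Veh libraries, above the endothelial sums there. Red cell markers summed to 1471 to 3864, pericyte markers to 1271 to 1611 and oligodendrocyte markers to 694 to 1035 over the same libraries. On the first principal component of all 15 libraries (43.6% of the variance) GFP-AL replicates 2 and 3 lay farthest out. Among GFP-Veh libraries replicate 2 lay closest to the GFP-AL side.

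A gene was called when its limma adjusted p was below 0.05. By that rule 1416 genes were higher in GFP-AL (10.8% of those tested), 2321 were lower (17.7%), and 28.6% were called in all. The counts of each list below are to be set beside these shares. Of the 12 endothelial markers 5 were higher (41.7%) and 1 lower (8.3%). With quantile normalization 2 of them were higher and 2 lower, and with log2 depth as a covariate 3 were higher and 0 lower. Since the filter takes the mean of all 15 libraries, a gene near 0 with saline could pass through drug libraries alone. Such a gene could then only be called higher. Csf3, Il11, Lif, Sele, Selp and Fosl1 were near 0 with saline, and they are part of the counts of members called higher. In 16.7% of genes no GFP-AL library overlapped the GFP-Veh libraries (6.59% higher, 10.1% lower). The median log2 fold change over all genes was -0.09. Median-of-ratios scaling, which recentres the libraries, moved this median to -0.01 and the split to 1843 higher and 1712 lower, so the surplus of lower genes depends on the scaling. In 18 alternative fits that keep these genes, 1877 genes kept their call and direction throughout (811 higher, 1066 lower), and the genes named with a call below are among them unless stated. The drugs and the depth of the libraries went together, since 4 of the 5 GFP-Veh libraries were the shallowest; with log2 depth as a covariate 1014 genes were higher (7.75%) and 1345 lower (10.3%). Fold changes are given as log2 values on the log2(FPKM + 1) scale with their standard error, which understates the change of low genes.

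**Figure D1:**
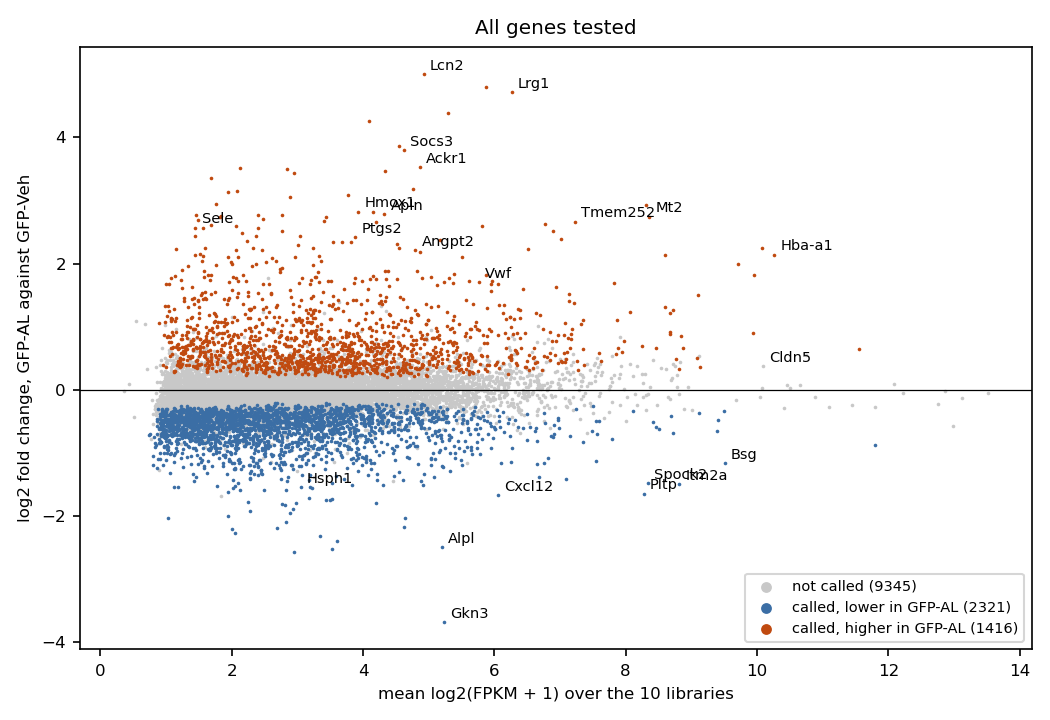
Each point is 1 of the 13082 genes tested, placed by its mean log2(FPKM + 1) over the 10 libraries (horizontal) and its log2 fold change in GFP-AL against GFP-Veh (vertical), red where called higher and blue where called lower. The largest gains, such as Lcn2 at 5.0, exceed the largest losses, such as Gkn3 at -3.67, while more genes are called lower than higher.

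In the list of gp130 and STAT3 signalling, transcripts of the inhibitor Socs3, the factor Stat3 and some ligands rose, while the receptors moved both ways. Of this list 12 of 27 tested members were higher and 2 lower (median 0.18). Socs3, the feedback inhibitor of gp130 receptors, read 7.76, 5.93, 5.53, 3.61 and 5.83 FPKM in GFP-Veh replicates 1 to 5 and 47.4, 159.7, 192, 80.7 and 52.8 in GFP-AL replicates 1 to 5. All 5 GFP-AL libraries lay above all GFP-Veh libraries, replicates 2 and 3 highest (log2 fold change 3.8 ± 0.33, adjusted p = 6.04e-06). Stat3 itself rose from 9.43 ± 1.46 FPKM in GFP-Veh to 20.4 ± 3.32 in GFP-AL (SD, n = 5; log2 fold change 1.03 ± 0.12, adjusted p = 3.79e-05), without overlap. Csf3, a granulocyte growth factor that the list holds although gp130 is not its receptor, went from 0.0083 to 13.1 FPKM (3.35 ± 0.46). The ligand Il11 went from 0.274 to 5.56 FPKM (1.96 ± 0.42). Lif, a ligand of the same family, went from 0.246 to 3.51 FPKM (1.33 ± 0.46). Lif was not called with log2 depth as a covariate, with no filter, in a fit of only the 10 libraries, without GFP-Veh replicate 1, 2, 3, 4 or 5 or without GFP-AL replicate 1, 2 or 4 (adjusted p = 0.0572 to 0.183). Il6, Osm and Ctf1 stayed below the filter in these vessels. Among receptors Il6ra, the interleukin-6 binding chain, rose by 1.07 ± 0.13 and Osmr, the oncostatin M receptor chain, by 0.80 ± 0.18; the common chain Il6st gave -0.29 ± 0.17 and was not called (adjusted p = 0.209). Lifr, the receptor chain for Lif, gave -0.47 ± 0.15, the only one of the 6 receptors called lower. Lifr was not called with log2 depth as a covariate, with median-of-ratios scaling, in a fit of only the 10 libraries, with quantile normalization or without GFP-Veh replicate 1, 3, 4 or 5 (adjusted p = 0.0505 to 0.109). Tyk2, a JAK family kinase, fell from 14 to 9.57 FPKM (log2 fold change -0.51 ± 0.09, adjusted p = 7.45e-04).

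Acute-phase genes had the highest median of the 43 pathway lists. Since members were chosen with earlier results of these data known, and Lcn2, Serpina3n, Lrg1 and Ch25h are among them, this rank is a description and not a test. In the list of acute-phase and STAT3 or NF-kappaB target genes 14 of 18 tested members were higher and 0 lower (median 2.0; 0 lower at an unadjusted p below 0.05). Serpina3n, a secreted protease inhibitor, read 13.5, 10.7, 6.5, 11 and 10.1 FPKM in GFP-Veh replicates 1 to 5 and 227, 356, 334, 325 and 315 in GFP-AL replicates 1 to 5. The lowest GFP-AL library was many times the highest GFP-Veh library (log2 fold change 4.79 ± 0.42, adjusted p = 6.04e-06); near-identical Serpina3 copies may share its reads. Lcn2, a siderophore-binding protein, read 5.34, 4.74, 7.93, 2.002 and 3.57 FPKM in GFP-Veh replicates 1 to 5 and 91.3, 451, 269.5, 182 and 71.1 in GFP-AL replicates 1 to 5. Replicate 5 was the lowest and replicate 2 the highest of a wide GFP-AL range, none of which overlapped GFP-Veh. Cebpd, a factor of the acute-phase response, went from 49.6 ± 10.8 FPKM in GFP-Veh to 304 ± 129 in GFP-AL (SD, n = 5; log2 fold change 2.52 ± 0.26, adjusted p = 1.88e-05). Il4ra, the interleukin-4 receptor chain, rose by 2.35 ± 0.26, the haemoglobin-binding Hp by 2.12 ± 0.44 and the metalloprotease inhibitor Timp1 by 3.05 ± 0.33. Lrg1, a leucine-rich glycoprotein of the acute phase, read 40.1, 18.8, 13.7, 7.06 and 6.77 FPKM in GFP-Veh replicates 1 to 5 and 215, 685, 603, 378 and 284 in GFP-AL replicates 1 to 5, the lowest drug library being far above the highest saline library (log2 fold change 4.72 ± 0.45, adjusted p = 1.15e-05).

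**Figure D2:**
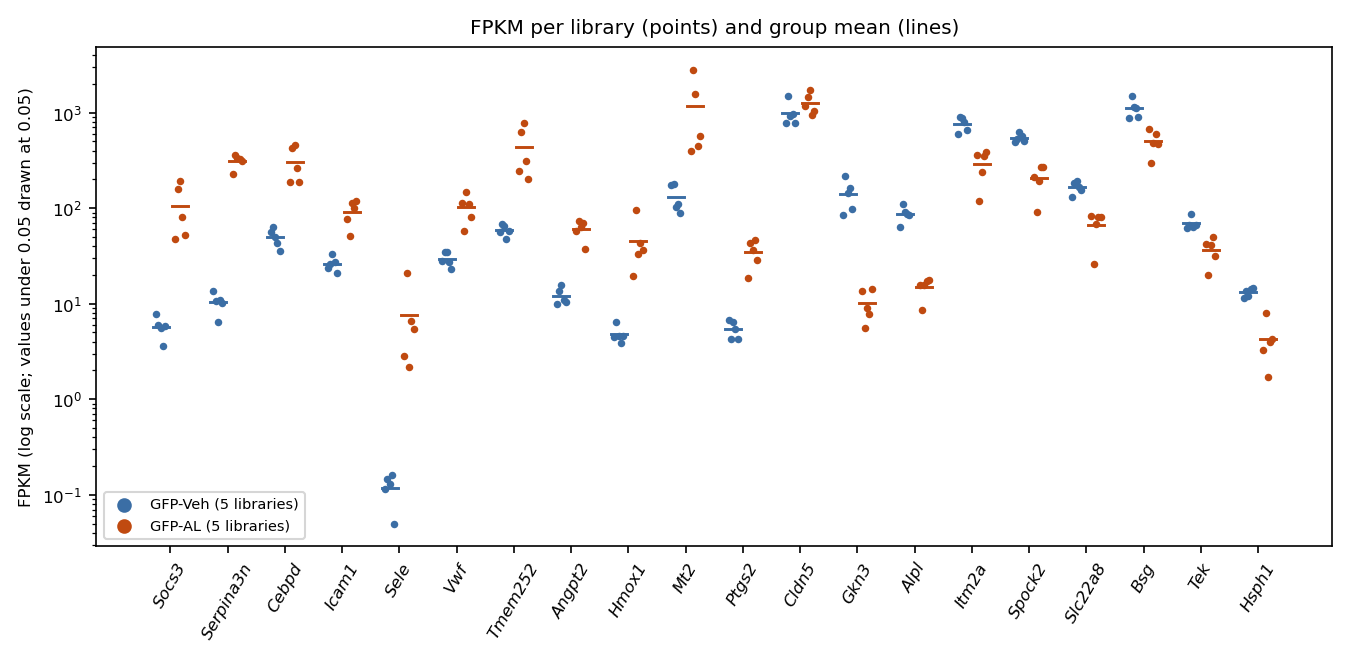
FPKM on a log axis of 20 genes in each of the 5 GFP-Veh (blue) and 5 GFP-AL (red) libraries, with lines at the group means. Socs3 and Serpina3n separate completely between the groups, Cldn5 overlaps, and Gkn3, Alpl, Itm2a and Spock2 lie lower in all GFP-AL libraries.

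Genes of the NF-kappaB pathway were mostly higher among subunits, inhibitors and feedback targets, and less uniform among receptors and kinases. Over the pathway 20 of 36 tested members were higher and 1 lower (median 0.46). By role there were 6 higher and 0 lower of 16 among receptors and adaptors, 9 higher and 0 lower of 10 among inhibitors and feedback targets, 4 higher and 0 lower of 5 among subunits and 1 higher and 1 lower of 5 among kinases. Ikbkb, which phosphorylates the inhibitors, was the kinase called lower (log2 fold change -0.42 ± 0.13, adjusted p = 0.023), and the number of kinases called lower was 0 with median-of-ratios scaling, with quantile normalization, in a fit of only the 10 libraries, with log2 depth as a covariate, without GFP-Veh replicate 1, 3 or 4 or without GFP-AL replicate 3, and 2 without GFP-AL replicates 2 and 3 and GFP-Veh replicate 2, without GFP-Veh replicate 2 or without GFP-AL replicate 5. Tnfrsf1a, the main tumour necrosis factor receptor, read 32.4, 36.6, 29.9, 29.1 and 26.9 FPKM in GFP-Veh replicates 1 to 5 and 64.4, 106, 97.4, 74.9 and 68.2 in GFP-AL replicates 1 to 5. Every GFP-AL library exceeded every GFP-Veh library (log2 fold change 1.36 ± 0.13, adjusted p = 1.42e-05). The companion receptor Tnfrsf1b rose by 0.99 ± 0.13, the Toll-like receptor Tlr2 by 1.31 ± 0.20 and the adaptor Myd88 by 0.80 ± 0.15, while Tlr4 gave 0.20 ± 0.21 (adjusted p = 0.488). Cd14, the co-receptor for lipopolysaccharide, went from 5.24 ± 1.28 FPKM in GFP-Veh to 103 ± 65 in GFP-AL (SD, n = 5). Birc3, an inhibitor of cell death that NF-kappaB induces, rose by 1.15 ± 0.15. Il1r1, the interleukin-1 receptor, went from 12.4 to 26.2 FPKM (1.06 ± 0.25), the subunit Rela from 51.7 to 68.8 (0.39 ± 0.11) and the inhibitor Nfkbia from 194 to 355 (0.77 ± 0.24). Il1r1 was not called without GFP-AL replicates 2 and 3 and GFP-Veh replicate 2 (adjusted p = 0.0687); Rela was not called without GFP-AL replicates 2 and 3 and GFP-Veh replicate 2 (adjusted p = 0.0633); Nfkbia was not called without GFP-AL replicates 2 and 3 and GFP-Veh replicate 2, with log2 depth as a covariate, in a fit of only the 10 libraries or without GFP-Veh replicate 4 or 5 (adjusted p = 0.0508 to 0.0617).

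Chemokines, the small proteins that attract leukocytes, were mostly higher. Of the list 19 of 25 tested members were higher and 1 lower (median 1.13). Ccl2, the main attractant of monocytes, read 0.841, 2.51, 0.951, 1.53 and 1.06 FPKM in GFP-Veh replicates 1 to 5 and 9.97, 19.8, 3.33, 9.17 and 14.5 in GFP-AL replicates 1 to 5. No GFP-AL library fell within the GFP-Veh range (log2 fold change 2.24 ± 0.31, adjusted p = 1.38e-04). Ccl6 rose from 3.25 to 30.5 FPKM (2.74 ± 0.28), and the neutrophil attractant Cxcl1 from 1.08 to 8.22 (2.1 ± 0.24). Cxcl12, which holds cells in place and marks capillary endothelium, went the other way, reading 96.1, 96.8, 171, 130.2 and 109.7 FPKM in GFP-Veh replicates 1 to 5 and 48.3, 15, 49.8, 52.7 and 33.3 in GFP-AL replicates 1 to 5. It was the only member called lower, without overlap (log2 fold change -1.67 ± 0.29, adjusted p = 6.86e-04). Ackr1, a chemokine-binding receptor of venules, read 11.2, 8.35, 7.02, 12 and 2.89 FPKM in GFP-Veh replicates 1 to 5 and 50.1, 195, 83.9, 122 and 89.8 in GFP-AL replicates 1 to 5, its GFP-AL range lying wholly above that of GFP-Veh. The membrane-bound Cx3cl1, at 57 FPKM in GFP-Veh the most abundant ligand after Cxcl12, gave 0.03 ± 0.18 (adjusted p = 0.917).

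Several adhesion molecules of activated endothelium rose, the selectins from near 0. Of the leukocyte adhesion list 10 of 19 tested members were higher and 3 lower (median 0.42). Sele, the endothelial selectin that slows leukocytes, read 0.116, 0.145, 0.13, 0.159 and 0.0441 FPKM in GFP-Veh replicates 1 to 5 and 2.84, 20.7, 2.17, 6.61 and 5.44 in GFP-AL replicates 1 to 5. Selp, a selectin stored with von Willebrand factor, read 0.205, 0.213, 0.181, 0.108 and 0.122 FPKM in GFP-Veh replicates 1 to 5 and 3.4, 13.3, 1.89, 7.03 and 5.95 in GFP-AL replicates 1 to 5. Both were near 0 with saline and above that range in every drug library (log2 fold change 2.57 ± 0.45, adjusted p = 7.62e-04 for Sele; log2 fold change 2.44 ± 0.33, adjusted p = 1.12e-04 for Selp). Icam1, the ligand of leukocyte integrins, was already present with saline and went from 26.2 ± 4.49 FPKM in GFP-Veh to 92.1 ± 28.1 in GFP-AL (SD, n = 5; log2 fold change 1.73 ± 0.28, adjusted p = 4.53e-04). Vcam1, the other classic integrin ligand, gave 0.42 ± 0.20 with a 95% interval of -0.01 to 0.84 and was not called (adjusted p = 0.129). Bst1 rose by 2.12 ± 0.23, whereas the junctional adhesion proteins Jam3 and Cd99l2 fell by 0.59 ± 0.10 and 0.50 ± 0.11.

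Markers of neutrophils and of monocytes and macrophages were mostly higher, whereas those of resident microglia and lymphocytes mostly were not. Of 10 neutrophil markers 6 were higher and 0 lower, among them Il1r2 (2.94 ± 0.37), Cxcr2 (1.74 ± 0.40) and Retnlg (2.18 ± 0.48), while Ngp and Camp, granule genes of immature neutrophils, gave -0.62 ± 0.43 and -1.21 ± 0.49 and were not called (adjusted p = 0.297 and 0.0767). The neutrophil markers summed to 106 to 344 FPKM over the GFP-Veh libraries and 127 to 977 in GFP-AL. Of 7 tested monocyte and macrophage markers 6 were higher, including Lyz2 (1.11 ± 0.16) and F13a1 (1.3 ± 0.25), and all 10 in the table summed to 113 to 196 FPKM over the GFP-Veh libraries and 331 to 507 in GFP-AL; Ccr2, a defining receptor of blood monocytes, was below the filter. Resident microglia had 1 of 7 higher and a sum of 83.7 to 152 FPKM over the GFP-Veh libraries and 148 to 208 in GFP-AL. Of the 10 lymphocyte markers 8 were below the filter and the sum was 6.34 to 16 FPKM over the GFP-Veh libraries and 6.04 to 13.3 in GFP-AL. No member of these lists was below 0.1 FPKM in all 10 libraries. Mice had been perfused with buffer before the brain was taken. What part these cells have in the rise of cytokine, chemokine and receptor genes was not tested, and in a whole-vessel preparation fewer or more cells of a type and less or more RNA per cell cannot be told apart.

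Interferon-stimulated genes moved in both directions. Of the interferon and antigen presentation list 4 of 43 tested members were higher and 8 lower (median -0.32), or 9.3% and 18.6%, near the 10.8% and 17.7% over all genes; among its interferon-stimulated genes there were 4 higher and 7 lower of 30. With log2 depth as a covariate 3 of the list were lower, 2 of them interferon-stimulated; without GFP-AL replicates 2 and 3 and GFP-Veh replicate 2, 3 interferon-stimulated genes were lower. The guanylate-binding protein gene Gbp3 fell from 24.4 to 10.8 FPKM (-1.11 ± 0.17), and the immunoproteasome subunit Psmb9 by 0.71 ± 0.14. Classical targets such as Isg15 (-0.04 ± 0.35, adjusted p = 0.948) and the class I light chain B2m (-0.28 ± 0.15, adjusted p = 0.178) were not called. The members called higher were the antiviral Ifitm1 (1.67 ± 0.24), Ifitm2 (1.22 ± 0.19) and Ifitm3 (0.85 ± 0.22), which are near-identical neighbours whose reads may be split, and Ifi27l2a (1.47 ± 0.37).

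Complement genes were mostly higher. Of this list 11 of 18 tested members were higher and 1 lower (median 0.73), and 7 were higher with log2 depth as a covariate. The lower one, the protease C1s1, gave -0.69 ± 0.24. C1s1 was not called without GFP-AL replicates 2 and 3 and GFP-Veh replicate 2, with log2 depth as a covariate, with median-of-ratios scaling, with no filter, in a fit of only the 10 libraries, with quantile normalization, with a replicate block, without GFP-Veh replicate 1, 2, 3, 4 or 5 or without GFP-AL replicate 1, 2 or 3 (adjusted p = 0.0506 to 0.22). The chains C1qa, C1qb and C1qc of the initiating complex rose from 97.3 to 246, 85.4 to 245 and 43.1 to 109.6 FPKM, and the receptors C3ar1 and Itgam rose by 1.36 ± 0.14 and 1.34 ± 0.16. Macrophages and microglia are the known source of C1q, and 6 of 7 tested macrophage markers were higher; their part here was not tested.

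Many capillary endothelial genes fell and many venous genes rose. Of 17 venous markers 9 were higher and 1 lower (median 0.61), of 17 capillary markers 0 were higher and 9 lower (median -0.72), and of 24 arterial markers 8 were higher and 5 lower (median -0.15). For arterial markers this is 33.3% and 20.8% against 10.8% and 17.7% over all genes. Under median-of-ratios scaling the venous and capillary medians were 0.69 and -0.63. The arterial counts were less stable: the higher one was 5 without GFP-Veh replicate 4 or 5 and the lower one 2 to 3 with log2 depth as a covariate, with median-of-ratios scaling, in a fit of only the 10 libraries, with a replicate block, without GFP-Veh replicate 3 or 4 or without GFP-AL replicate 2 or 5. The venous list includes Lcn2, Ackr1 and Icam1, which inflammation is known to induce.

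Tmem252, a membrane protein of venous endothelium, read 56.4, 68.7, 64.6, 47.7 and 58.3 FPKM in GFP-Veh replicates 1 to 5 and 247, 631, 786, 311 and 202 in GFP-AL replicates 1 to 5. Its lowest GFP-AL library was above its highest GFP-Veh library (log2 fold change 2.67 ± 0.36, adjusted p = 1.03e-04). Vwf, the clotting glycoprotein of large-vessel and venous endothelium, read 28.2, 34.4, 34.7, 27.3 and 22.9 FPKM in GFP-Veh replicates 1 to 5 and 113, 58.2, 147, 111 and 81 in GFP-AL replicates 1 to 5. All GFP-AL values again exceeded the GFP-Veh values (log2 fold change 1.7 ± 0.24, adjusted p = 1.60e-04). The venous fate factor Nr2f2, which averaged 19.7 FPKM with saline and 19.9 with the drugs (-0.001 ± 0.11, 95% interval -0.24 to 0.24), and the venous ephrin receptor Ephb4 (0.02 ± 0.13, 95% interval -0.27 to 0.30) were not called.

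Among capillary genes Itm2a, a membrane protein abundant in brain capillaries, read 601, 899, 875, 789 and 661 FPKM in GFP-Veh replicates 1 to 5 and 357, 119, 241, 351 and 391 in GFP-AL replicates 1 to 5. Spock2, a proteoglycan of the basement membrane, read 494, 525, 621, 569 and 506 FPKM in GFP-Veh replicates 1 to 5 and 212, 91.8, 191, 269 and 271 in GFP-AL replicates 1 to 5. In both genes every drug library was below every saline library, replicates 2 and 3 being the lowest (log2 fold change -1.49 ± 0.26, adjusted p = 7.51e-04 for Itm2a; log2 fold change -1.48 ± 0.22, adjusted p = 2.51e-04 for Spock2). Car4, a carbonic anhydrase on the capillary surface, fell from 163 to 74.4 FPKM (-1.16 ± 0.18). The lipid transporter Mfsd2a (-0.31 ± 0.21, adjusted p = 0.282), the transferrin receptor Tfrc (-0.34 ± 0.53, adjusted p = 0.664) and the amino acid carrier Slc7a5 (0.06 ± 0.31, adjusted p = 0.897), also capillary markers, were not called.

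Arterial genes moved in both directions. Mgp, an inhibitor of calcification, rose from 133 ± 54.4 FPKM in GFP-Veh to 416 ± 101 in GFP-AL (SD, n = 5; log2 fold change 1.69 ± 0.23, adjusted p = 1.03e-04), Cdh13 by 1.67 ± 0.19 and the gap junction protein Gja4 by 0.95 ± 0.20. Gkn3, a marker of brain arterial endothelium, read 84.3, 216, 145, 164 and 97.9 FPKM in GFP-Veh replicates 1 to 5 and 13.6, 5.63, 9.02, 7.77 and 14.3 in GFP-AL replicates 1 to 5. Gkn3 had the lowest fold change of all genes tested, each GFP-AL library lying far below the GFP-Veh range (log2 fold change -3.67 ± 0.34, adjusted p = 1.15e-05). Nrp1, a co-receptor of VEGF and semaphorins, fell by 1.08 ± 0.21. The ephrin Efnb2, which marks arteries, went from 19.4 ± 4.34 FPKM in GFP-Veh to 13.5 ± 1.93 in GFP-AL (SD, n = 5; log2 fold change -0.48 ± 0.15, adjusted p = 0.0283). Efnb2 was not called with log2 depth as a covariate, with median-of-ratios scaling, without GFP-Veh replicate 3, 4 or 5 or without GFP-AL replicate 2 or 5 (adjusted p = 0.0513 to 0.173).

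**Figure D3:**
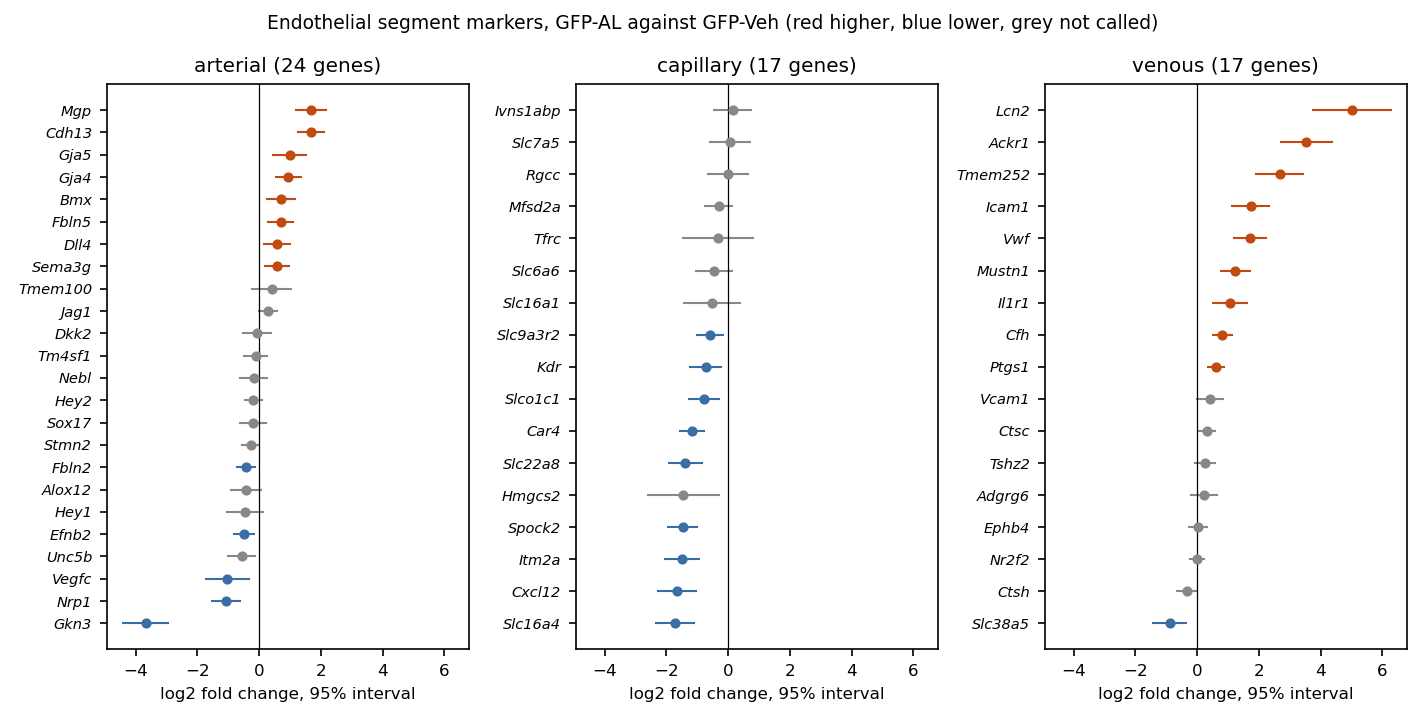
Log2 fold changes in GFP-AL against GFP-Veh with 95% intervals for 24 arterial, 17 capillary and 17 venous endothelial markers, red where called higher, blue where called lower and grey where not called. No capillary marker is called higher and 9 are called lower, 9 venous markers are called higher and 1 lower, and arterial markers lie on both sides.

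Some carriers of the blood-brain barrier fell, but as a list their shares were near those of all genes. Of 55 transport genes 6 were higher and 13 lower (median -0.22), or 10.9% and 23.6% against 10.8% and 17.7% over all genes, with nutrient carriers at 2 higher and 7 lower of 29 and organic anion carriers and efflux pumps at 3 higher and 3 lower of 15. With log2 depth as a covariate 1 carrier was higher. Slc22a8, an organic anion transporter, read 131, 183, 193, 168 and 154 FPKM in GFP-Veh replicates 1 to 5 and 81.8, 25.8, 67.7, 81.3 and 80.2 in GFP-AL replicates 1 to 5. All drug libraries were below all saline libraries (log2 fold change -1.38 ± 0.25, adjusted p = 0.00111). Slc16a4, a monocarboxylate carrier homologue, fell from 20.3 to 6.11 FPKM (-1.72 ± 0.29), and Slc27a1, a fatty acid carrier, by 0.92 ± 0.18. Slco1c1, which carries thyroxine, went from 119 ± 13.3 FPKM in GFP-Veh to 72.9 ± 25.8 in GFP-AL (SD, n = 5; log2 fold change -0.79 ± 0.23, adjusted p = 0.0175). Slco1c1 was not called with log2 depth as a covariate (adjusted p = 0.101). The efflux pumps Abcb1a (-0.20 ± 0.23, 95% interval -0.70 to 0.29) and Abcg2 (-0.22 ± 0.21, 95% interval -0.68 to 0.23) were not called. Slc2a1, the glucose carrier and the most abundant transporter of the list, went from 732 ± 159.9 FPKM in GFP-Veh to 1369 ± 348 in GFP-AL (SD, n = 5; log2 fold change 0.90 ± 0.30, adjusted p = 0.0353), without overlap. Slc2a1 was not called without GFP-AL replicates 2 and 3 and GFP-Veh replicate 2, with log2 depth as a covariate, with no filter, with quantile normalization, without GFP-Veh replicate 3, 4 or 5 or without GFP-AL replicate 2, 3 or 4 (adjusted p = 0.0501 to 0.165). Bsg, the membrane partner of monocarboxylate carriers and a general marker of barrier endothelium, went from 1106 ± 242 FPKM in GFP-Veh to 503 ± 141 in GFP-AL (SD, n = 5; log2 fold change -1.16 ± 0.21, adjusted p = 8.93e-04).

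Junction genes moved in both directions. Of 31 genes of junctions and vesicles 7 were higher and 6 lower (median -0.13), or 22.6% and 19.4% against 10.8% and 17.7% over all genes. Cldn5, the main sealing claudin, read 774, 1476, 916, 958 and 785 FPKM in GFP-Veh replicates 1 to 5 and 1181, 1474, 1739, 934 and 1044 in GFP-AL replicates 1 to 5. The groups overlapped, and the fold change of 0.38 ± 0.20 had a 95% interval of -0.04 to 0.80 (adjusted p = 0.16). Tjp1, a scaffold of tight junctions, gave -0.32 ± 0.23 (adjusted p = 0.323). Ctnnb1, beta-catenin of adherens junctions and Wnt signalling, fell from 79.2 ± 4.5 FPKM in GFP-Veh to 51.9 ± 11.1 in GFP-AL (SD, n = 5; log2 fold change -0.62 ± 0.12, adjusted p = 0.00151). Cdh5, the cadherin of endothelial adherens junctions, and Ocln, occludin, gave 0.56 ± 0.15 and -0.35 ± 0.12. Cdh5 was not called without GFP-AL replicates 2 and 3 and GFP-Veh replicate 2 or with quantile normalization (adjusted p = 0.11 to 0.125); Ocln was not called without GFP-AL replicates 2 and 3 and GFP-Veh replicate 2, with log2 depth as a covariate, with median-of-ratios scaling, with no filter, without GFP-Veh replicate 1, 2, 3, 4 or 5 or without GFP-AL replicate 1, 2 or 4 (adjusted p = 0.0501 to 0.268). Esam and Marveld2, tight junction proteins, rose by 0.58 ± 0.14 and 0.88 ± 0.20, and Cgn, a junction adaptor, fell by 0.51 ± 0.13. The vesicle genes Plvap and Cav1 gave -0.13 ± 0.14 and -0.49 ± 0.27, neither called (adjusted p = 0.534 and 0.183), while the endocytic ATPase Ehd4 rose by 0.92 ± 0.15.

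Ligands of vessel growth moved in both directions, and the receptor Tek fell. Of the VEGF and angiopoietin list 7 of 29 tested members were higher and 7 lower (median -0.12); the lower count was 2 to 4 with log2 depth as a covariate, with median-of-ratios scaling, in a fit of only the 10 libraries, without GFP-AL replicates 2 and 3 and GFP-Veh replicate 2, with a replicate block, without GFP-Veh replicate 3, 4 or 5 or without GFP-AL replicate 2, 3 or 5. Angpt2, the antagonist of the receptor Tek in quiescent vessels, read 9.83, 13.5, 15.8, 11 and 10.4 FPKM in GFP-Veh replicates 1 to 5 and 58.1, 73.4, 63.2, 69.4 and 37.7 in GFP-AL replicates 1 to 5. Tek read 61.5, 67.3, 87.7, 63.9 and 66 FPKM in GFP-Veh replicates 1 to 5 and 41.9, 19.8, 41.6, 49.3 and 31.4 in GFP-AL replicates 1 to 5. Neither gene overlapped between groups, and they moved in opposite directions (log2 fold change 2.21 ± 0.23, adjusted p = 1.82e-05 for Angpt2; log2 fold change -0.95 ± 0.20, adjusted p = 0.00285 for Tek). Apln, the apelin peptide, went from 6.69 to 55.4 FPKM (2.78 ± 0.29), Pgf, a ligand of Flt1, from 6.41 to 50.6 (2.67 ± 0.29) and the lipase inhibitor Angptl4 from 5.51 to 32.8 (2.34 ± 0.33). Of the 10 ligands tested 3 were called lower: Vegfc, which acts mainly on lymphatic vessels, at -1.03 ± 0.33, Vegfb at -0.43 ± 0.16 and Angpt1, the activating ligand of Tek, at -0.39 ± 0.13. Vegfc was not called without GFP-AL replicates 2 and 3 and GFP-Veh replicate 2, with log2 depth as a covariate, in a fit of only the 10 libraries, with a replicate block, without GFP-Veh replicate 2, 3 or 4 or without GFP-AL replicate 2 (adjusted p = 0.0503 to 0.165); Vegfb was not called without GFP-AL replicates 2 and 3 and GFP-Veh replicate 2, with log2 depth as a covariate, with median-of-ratios scaling, with no filter, in a fit of only the 10 libraries, without GFP-Veh replicate 1, 2, 4 or 5 or without GFP-AL replicate 1, 3, 4 or 5 (adjusted p = 0.0534 to 0.114); Angpt1 was not called without GFP-AL replicates 2 and 3 and GFP-Veh replicate 2, with log2 depth as a covariate, with median-of-ratios scaling, with no filter, in a fit of only the 10 libraries, with quantile normalization, with a replicate block, without GFP-Veh replicate 3, 4 or 5 or without GFP-AL replicate 2 or 3 (adjusted p = 0.051 to 0.154). Kdr, the main VEGF receptor, went from 51.3 ± 12.9 FPKM in GFP-Veh to 31.3 ± 11.7 in GFP-AL (SD, n = 5; log2 fold change -0.72 ± 0.23, adjusted p = 0.0318). Kdr was not called without GFP-AL replicates 2 and 3 and GFP-Veh replicate 2, with log2 depth as a covariate, with median-of-ratios scaling, with a replicate block, without GFP-Veh replicate 3, 4 or 5 or without GFP-AL replicate 2, 3 or 5 (adjusted p = 0.0508 to 0.16). Vegfa (-0.39 ± 0.26, adjusted p = 0.269), Flt1 (-0.05 ± 0.13, adjusted p = 0.798) and Tie1 (-0.25 ± 0.12, adjusted p = 0.126) were not called.

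Few genes of the angiotensin system were called. Of 9 tested 1 was higher, Ace, and 1 lower, or 11.1% and 11.1% against 10.8% and 17.7% over all genes; the lower one was the peptidase Anpep (-0.44 ± 0.15). Anpep was not called without GFP-AL replicates 2 and 3 and GFP-Veh replicate 2, with log2 depth as a covariate, with median-of-ratios scaling, in a fit of only the 10 libraries, with a replicate block, without GFP-Veh replicate 2, 3 or 5 or without GFP-AL replicate 1, 2 or 3 (adjusted p = 0.054 to 0.254). Ace, which makes angiotensin II, rose from 25.5 ± 2.28 FPKM in GFP-Veh to 47.7 ± 6.73 in GFP-AL (SD, n = 5; log2 fold change 0.87 ± 0.12, adjusted p = 1.25e-04), and Agt, its precursor, gave 0.46 ± 0.21 (adjusted p = 0.108). The receptors Agtr1a, Agtr1b and Agtr2 and the protease Ren1 were below the filter. Of the nitric oxide, endothelin and prostanoid list 8 of 35 tested members were higher and 9 lower (median -0.11), or 22.9% and 25.7%. With log2 depth as a covariate 3 of that list were lower. Nos3, the endothelial synthase that L-NAME inhibits, read 121, 111, 122, 104 and 96.6 FPKM in GFP-Veh replicates 1 to 5 and 134, 192, 183, 178 and 161 in GFP-AL replicates 1 to 5. The groups did not overlap (log2 fold change 0.60 ± 0.14, adjusted p = 0.00482). Nos3 was not called with quantile normalization (adjusted p = 0.0603). Qdpr, which regenerates the synthase cofactor tetrahydrobiopterin, fell by 0.98 ± 0.21.

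Endothelin and prostanoid genes differed from each other. Edn1, the constrictor endothelin of endothelium, gave -0.03 ± 0.11 (95% interval -0.26 to 0.21) and Ednra, its smooth muscle receptor, 0.09 ± 0.12 (95% interval -0.16 to 0.34), while Edn3 fell from 20.3 to 8.76 FPKM (-1.23 ± 0.29). Ptgs2, the inducible cyclooxygenase, read 6.8, 4.23, 6.42, 5.49 and 4.25 FPKM in GFP-Veh replicates 1 to 5 and 18.8, 43.2, 36.2, 46.3 and 29 in GFP-AL replicates 1 to 5. Each GFP-AL library exceeded the GFP-Veh range (log2 fold change 2.42 ± 0.31, adjusted p = 6.21e-05). Ptges, the next enzyme towards prostaglandin E, rose by 1.05 ± 0.18 and Ptgs1 by 0.61 ± 0.12.

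Wnt genes were called in both directions, and Notch and flow-responsive genes at about the shares of all genes or below. Of 36 Wnt genes 4 were higher and 9 lower (median -0.18), or 11.1% and 25% against 10.8% and 17.7% over all genes, the higher count being 2 in a fit of only the 10 libraries, with log2 depth as a covariate, without GFP-Veh replicate 1, 3, 4 or 5 or without GFP-AL replicate 3 or 5. The barrier-inducing receptor Fzd4 (0.24 ± 0.32) and the targets Axin2 (-0.07 ± 0.18) and Lef1 (-0.32 ± 0.12) were not called, with adjusted p of 0.604, 0.804 and 0.0594, whereas the co-receptor Lrp6 fell by 0.54 ± 0.10 and Tnfrsf19 by 0.84 ± 0.18. Apcdd1, an endothelial Wnt target, was higher at 0.58 ± 0.14, as were the nuclear receptor gene Ppard at 0.54 ± 0.13, the factor gene Tcf7l1 at 0.36 ± 0.12 and the scaffold gene Axin1 at 0.24 ± 0.09. Apcdd1 was not called without GFP-AL replicates 2 and 3 and GFP-Veh replicate 2 or with quantile normalization (adjusted p = 0.0557 to 0.067); Tcf7l1 was not called with log2 depth as a covariate, in a fit of only the 10 libraries, without GFP-Veh replicate 1, 3, 4 or 5 or without GFP-AL replicate 3, 4 or 5 (adjusted p = 0.0516 to 0.136); Axin1 was not called without GFP-AL replicates 2 and 3 and GFP-Veh replicate 2, with log2 depth as a covariate, with no filter, in a fit of only the 10 libraries, without GFP-Veh replicate 1, 2, 3, 4 or 5 or without GFP-AL replicate 2, 3 or 5 (adjusted p = 0.0516 to 0.184). Of 23 Notch genes 2 were higher and 3 lower (median 0.12), with the feedback gene Nrarp at 0.81 ± 0.19 and the receptor Notch1 at 0.14 ± 0.15 (adjusted p = 0.496). The lower Notch count was 1 with median-of-ratios scaling, with quantile normalization, without GFP-Veh replicate 1, 4 or 5 or without GFP-AL replicate 3 or 4. Of 18 Kruppel-like and flow genes 1 was higher and 3 lower (median -0.24); the lower count was 1 with median-of-ratios scaling, with log2 depth as a covariate or without GFP-Veh replicate 1 or 3, and 6 without GFP-Veh replicate 2. Klf2, the shear-stress factor of endothelium, read 489.7, 688, 546, 478 and 458 FPKM in GFP-Veh replicates 1 to 5 and 271, 574, 537, 397 and 425 in GFP-AL replicates 1 to 5 and was not called (adjusted p = 0.39). Klf11 fell by 0.89 ± 0.17 and Klf4 from 153 to 94.1 FPKM (-0.75 ± 0.24). Klf4 was not called without GFP-AL replicates 2 and 3 and GFP-Veh replicate 2, with log2 depth as a covariate, with median-of-ratios scaling, without GFP-Veh replicate 1 or 3 or without GFP-AL replicate 1 or 2 (adjusted p = 0.0524 to 0.269).

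Many clotting genes rose, both clot-forming and clot-limiting ones. Of the coagulation and fibrinolysis list 14 of 27 tested members were higher and 2 lower (median 0.34), and 9 were higher with log2 depth as a covariate. Procr, the protein C receptor that limits clotting, read 5.21, 6.62, 5.03, 5.48 and 3.68 FPKM in GFP-Veh replicates 1 to 5 and 11.4, 27.1, 21.5, 15.3 and 13.9 in GFP-AL replicates 1 to 5. Its drug libraries were all above its saline libraries (log2 fold change 1.56 ± 0.20, adjusted p = 6.21e-05). Vwf, which binds platelets and was given with the venous genes, is also a member. Plat, the tissue plasminogen activator, went from 284 ± 52.8 FPKM in GFP-Veh to 460.4 ± 143 in GFP-AL (SD, n = 5; log2 fold change 0.66 ± 0.20, adjusted p = 0.0217), its groups overlapping. Plat was not called with log2 depth as a covariate, with quantile normalization or without GFP-Veh replicate 4 or 5 (adjusted p = 0.0537 to 0.133). Thrombomodulin Thbd (-0.04 ± 0.18, 95% interval -0.42 to 0.34) and tissue factor F3 (-0.28 ± 0.18, 95% interval -0.67 to 0.11) were not called. All 5 tested platelet markers were higher, from Itga2b at 1.14 to Ppbp at 1.91, and summed to 3.95 to 8.85 FPKM over the GFP-Veh libraries and 12.9 to 41.5 in GFP-AL; the part of platelets in this list was not tested.

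Some smooth muscle genes were lower, pericyte genes were called at about the shares of all genes, and the lower counts of both depended on the fit. Of 21 contractile genes 0 were higher and 7 lower (median -0.30; 0 higher at an unadjusted p below 0.05); the lower count was 1 to 4 without GFP-AL replicates 2 and 3 and GFP-Veh replicate 2, with log2 depth as a covariate, with median-of-ratios scaling, with no filter, in a fit of only the 10 libraries, without GFP-Veh replicate 3 or without GFP-AL replicate 1 or 3. Acta2, smooth muscle actin, gave -0.32 ± 0.16 (95% interval -0.66 to 0.03) and Tagln 0.01 ± 0.17 (95% interval -0.34 to 0.36). Vcl, which anchors actin at adhesions, fell by 0.74 ± 0.15. Of 21 pericyte genes 2 were higher and 4 lower (median -0.30), or 9.5% and 19% against 10.8% and 17.7%; the higher ones were Ifitm1 and Mcam (0.46 ± 0.11), both also expressed by endothelium. In the pericyte list the lower count was 1 to 2 with log2 depth as a covariate or without GFP-AL replicates 2 and 3 and GFP-Veh replicate 2, and 7 without GFP-AL replicate 4. Pdgfrb, the receptor that keeps pericytes on capillaries, gave 0.20 ± 0.11 (adjusted p = 0.181), and the most abundant pericyte marker Rgs5 went from 847 ± 135 FPKM in GFP-Veh to 549 ± 142 in GFP-AL (SD, n = 5; log2 fold change -0.65 ± 0.17, adjusted p = 0.0114). Rgs5 was not called without GFP-AL replicates 2 and 3 and GFP-Veh replicate 2 or with log2 depth as a covariate (adjusted p = 0.0527 to 0.0555). The 7 smooth muscle markers summed to 582 to 986 FPKM over the GFP-Veh libraries and 488 to 619 in GFP-AL and the 7 pericyte markers to 1271 to 1611 FPKM over the GFP-Veh libraries and 737 to 1255 in GFP-AL.

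Ion channels that set vessel tone were called at shares near those of all genes. Of 28 channels 4 were higher and 6 lower (median -0.16), or 14.3% and 21.4% against 10.8% and 17.7%, the lower count being 3 with quantile normalization, with log2 depth as a covariate, without GFP-Veh replicate 4 or 5 or without GFP-AL replicate 3. Kcnj2, the inward rectifier of capillary endothelium, rose from 5.77 ± 0.368 FPKM in GFP-Veh to 11.9 ± 3.19 in GFP-AL (SD, n = 5; log2 fold change 0.89 ± 0.18, adjusted p = 0.00193) and Trpv4, a calcium channel of endothelium, by 0.92 ± 0.20. The store-operated channel Orai1 rose by 0.79 ± 0.16. Kcnmb1, the smooth muscle subunit of the large-conductance potassium channel, fell by 0.81 ± 0.13. The KATP subunit Kcnj8 gave 0.19 ± 0.16 (adjusted p = 0.385).

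Matrix genes moved in both directions. Of 16 fibrillar and associated collagens 0 were higher and 5 lower (median -0.21; 0 higher at an unadjusted p below 0.05), and of 27 glycoproteins, proteoglycans and elastic fibre genes 9 were higher and 5 lower (median 0.16). Over both classes 10 were lower (6 in a fit of only the 10 libraries, with log2 depth as a covariate, without GFP-AL replicates 2 and 3 and GFP-Veh replicate 2 or without GFP-Veh replicate 4). Without GFP-AL replicates 2 and 3 and GFP-Veh replicate 2 the collagens had 2 higher and 3 lower (median 0.03). Eln, the elastic fibre protein, read 21.8, 22.1, 15.5, 17.6 and 15.5 FPKM in GFP-Veh replicates 1 to 5 and 58.8, 63.7, 68.2, 37.9 and 28.2 in GFP-AL replicates 1 to 5. Drug libraries all exceeded saline libraries (log2 fold change 1.37 ± 0.21, adjusted p = 3.40e-04). Spp1, a secreted phosphoprotein of macrophages and matrix, rose from 30.9 ± 7.38 FPKM in GFP-Veh to 115 ± 35.1 in GFP-AL (SD, n = 5; log2 fold change 1.83 ± 0.23, adjusted p = 5.45e-05), Igfbp7 from 332 to 938 FPKM (1.5 ± 0.21) and the cross-linking enzyme Lox by 1.12 ± 0.12. The fibril collagens Col1a1 (0.08 ± 0.19) and Col3a1 (0.46 ± 0.23) were not called, with adjusted p of 0.774 and 0.148, whereas the proteoglycans Ogn and Prelp fell by 1.23 ± 0.23 and 1.1 ± 0.15 and Col14a1 went from 2.95 to 0.34 FPKM. Of 9 fibroblast and meningeal markers 0 were higher and 2 lower (22.2%, against 17.7% over all genes). Without GFP-AL replicates 2 and 3 and GFP-Veh replicate 2, 3 of these markers were higher and 1 lower. Their median moved from -0.13 to 0.18 in that fit, so the direction of this list depends on those libraries. Their sum was 293 to 436 FPKM over the GFP-Veh libraries and 236 to 401 in GFP-AL.

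Some TGF-beta and activin ligands changed, while no receptor was called. Of 45 genes 8 were higher and 5 lower (median 0.05), or 17.8% and 11.1% against 10.8% and 17.7% over all genes. By limma 0 of 11 receptors were higher and 0 lower (median 0.01), with 0 higher and 2 lower at an unadjusted p below 0.05. Over the 45 genes the lower count was 8 without GFP-Veh replicate 2 or without GFP-AL replicate 5. Tgfb1 read 15.3, 21.1, 17.7, 15.4 and 15.9 FPKM in GFP-Veh replicates 1 to 5 and 38, 44, 39.4, 40.6 and 31.7 in GFP-AL replicates 1 to 5. Its GFP-AL libraries all lay above the GFP-Veh libraries (log2 fold change 1.14 ± 0.13, adjusted p = 3.79e-05). Tgfb2, a second isoform, fell from 10.1 to 4.91 FPKM (-0.89 ± 0.19), Inhbb, an activin subunit, rose from 1.24 to 12.1 (2.44 ± 0.24), and Ltbp4, which stores latent TGF-beta in the matrix, fell from 113 to 51.5 (-1.14 ± 0.13). The endothelial receptors Eng (-0.003 ± 0.13, 95% interval -0.27 to 0.27) and Acvrl1 (0.08 ± 0.14, 95% interval -0.22 to 0.38), whose loss causes fragile vessels in people, were not called. Smad1, the transducer of BMP signals, rose by 0.96 ± 0.14.

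Haem and iron genes rose in part. Of 26 genes 10 were higher and 1 lower (median 0.27). Hmox1, which breaks down haem, read 4.47, 6.39, 4.56, 3.92 and 4.56 FPKM in GFP-Veh replicates 1 to 5 and 19.5, 95.4, 32.8, 43.2 and 36.4 in GFP-AL replicates 1 to 5. No GFP-AL library came near the GFP-Veh range (log2 fold change 2.83 ± 0.34, adjusted p = 4.37e-05). Cd163, the haemoglobin scavenger receptor of macrophages, rose by 1.1 ± 0.22 and the iron transporter Slc11a1 by 0.95 ± 0.13, whereas the iron exporter Slc40a1 fell from 17.6 to 9.46 FPKM (-0.89 ± 0.21). The ferritin heavy chain Fth1 went from 2442 ± 473 FPKM in GFP-Veh to 3959 ± 1463 in GFP-AL (SD, n = 5; log2 fold change 0.64 ± 0.22, adjusted p = 0.0368). Fth1 was not called without GFP-AL replicates 2 and 3 and GFP-Veh replicate 2, with log2 depth as a covariate, with no filter, in a fit of only the 10 libraries, with quantile normalization, without GFP-Veh replicate 1, 3, 4 or 5 or without GFP-AL replicate 2, 3 or 5 (adjusted p = 0.059 to 0.136). The 7 red cell markers were all higher and summed to 1471 to 3864 FPKM over the GFP-Veh libraries and 3874 to 19348 in GFP-AL; the globins Hba-a1, Hba-a2, Hbb-bs and Hbb-bt are near-identical copies that may share reads, and the part of red cells in the haem list was not tested.

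Metallothioneins and some antioxidant enzymes also rose. Of 36 antioxidant genes 14 were higher and 1 lower (median 0.33). Mt2, a metal-binding protein, read 176, 179, 102, 111 and 89.1 FPKM in GFP-Veh replicates 1 to 5 and 394, 2815, 1576, 443 and 576 in GFP-AL replicates 1 to 5. Mt1 read 196, 277, 160.2, 166 and 148 FPKM in GFP-Veh replicates 1 to 5 and 464, 2059.7, 1417, 476 and 565 in GFP-AL replicates 1 to 5. Both separated between groups without overlap (log2 fold change 2.75 ± 0.44, adjusted p = 3.83e-04 for Mt2; log2 fold change 2.14 ± 0.35, adjusted p = 4.79e-04 for Mt1). Gpx3, a secreted glutathione peroxidase, rose by 2.24 ± 0.30 and Srxn1, an Nfe2l2 target, by 1.06 ± 0.14; Nqo1 (0.41 ± 0.15, adjusted p = 0.0562) and the mitochondrial superoxide dismutase Sod2 (0.21 ± 0.12, adjusted p = 0.202) were not called. Ncf1, an NADPH oxidase subunit of phagocytes, rose by 0.98 ± 0.14. Of 20 glucocorticoid-responsive genes 10 were higher and 1 lower (median 0.84): Fkbp5 rose by 2.3 ± 0.44 and Sgk1 by 0.84 ± 0.19, while Tsc22d3 (0.45 ± 0.28) and Per1 (0.30 ± 0.21) were not called, with adjusted p of 0.234 and 0.291.

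Glycolysis and hypoxia genes rose in part. Of 37 genes 10 were higher and 2 lower (median 0.26), and 5 were higher with log2 depth as a covariate. Adm, a vasodilator peptide that hypoxia and cytokines induce, read 4.87, 5.77, 5.88, 6.93 and 5.13 FPKM in GFP-Veh replicates 1 to 5 and 73.1, 73.2, 23.4, 79.5 and 20.7 in GFP-AL replicates 1 to 5. Here too the groups were fully separate (log2 fold change 2.82 ± 0.43, adjusted p = 2.74e-04). Slc16a3, the lactate exporter, went from 0.943 to 9.58 FPKM (2.22 ± 0.31) and Hif1a from 12.9 to 20.7 (0.65 ± 0.13). The glycolysis genes Pfkfb3 (0.81 ± 0.30, adjusted p = 0.0556), Aldoa (0.33 ± 0.16, adjusted p = 0.14) and Ldha (0.68 ± 0.26, adjusted p = 0.0605) were not called, and P4ha1, a collagen prolyl hydroxylase, fell by 0.85 ± 0.18.

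Most chaperones of the cytosol fell, while genes of the unfolded protein response moved both ways. Of 27 heat and cold shock genes 4 were higher and 16 lower (median -0.69); with log2 depth as a covariate 2 were higher. Hsph1, a large relative of Hsp70, read 11.5, 13.7, 12.1, 14.2 and 14.5 FPKM in GFP-Veh replicates 1 to 5 and 3.27, 7.94, 1.71, 3.93 and 4.31 in GFP-AL replicates 1 to 5. All GFP-AL libraries lay below all GFP-Veh libraries (log2 fold change -1.54 ± 0.22, adjusted p = 1.66e-04). Chordc1, a co-chaperone of Hsp90, read 34.2, 37.6, 41.2, 41 and 43.1 FPKM in GFP-Veh replicates 1 to 5 and 13.2, 12.8, 8.91, 17.7 and 19.2 in GFP-AL replicates 1 to 5, again without overlap (log2 fold change -1.43 ± 0.15, adjusted p = 2.13e-05). Dnaja1 and Stip1, partners of Hsp70 and Hsp90, fell by 1.12 ± 0.10 and 0.82 ± 0.09. The cold-inducible RNA-binding proteins Cirbp and Rbm3 rose by 1.04 ± 0.19 and 0.55 ± 0.11. Another partner of Hsp70 was also among the 4 members called higher, so these were not all cold-inducible genes. Of 33 genes of the unfolded protein response 10 were higher and 4 lower (median 0.10): Xbp1 rose by 1.16 ± 0.17 and Atf4 by 0.81 ± 0.19, while the chaperone Hspa5 (-0.22 ± 0.26, adjusted p = 0.561) was not called. The higher count of that list was 5 with log2 depth as a covariate and the lower one 0 to 2 with log2 depth as a covariate, in a fit of only the 10 libraries, with median-of-ratios scaling, without GFP-Veh replicate 1 or 4 or without GFP-AL replicate 1, 3 or 5, and 7 without GFP-AL replicates 2 and 3 and GFP-Veh replicate 2.

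Sterol genes split between an induced hydroxylase and the synthesis enzymes. Of 20 pathway enzymes 1 was higher and 7 lower (median -0.23). Over the whole sterol list of 33, 3 were higher and 9 lower (median -0.22); the lower count was 5 with log2 depth as a covariate and the higher one 5 with median-of-ratios scaling. Ch25h, which makes an oxysterol that represses sterol synthesis, read 10.7, 8.39, 8.36, 6.26 and 5.43 FPKM in GFP-Veh replicates 1 to 5 and 110.1, 284, 314, 194 and 95.6 in GFP-AL replicates 1 to 5. Its groups were far apart (log2 fold change 4.38 ± 0.35, adjusted p = 4.85e-06). Nsdhl and Tm7sf2, enzymes of the late pathway, fell by 0.77 ± 0.15 and 0.61 ± 0.12, and Stard4, a sterol carrier, by 0.56 ± 0.12. Among 14 genes of sphingosine-1-phosphate 1 was higher and 2 lower (median -0.12), or 7.1% and 14.3%, no more than the 10.8% and 17.7% over all genes. The lyase Sgpl1 rose by 0.55 ± 0.11, and the ceramidase Asah2 and the phosphatase Sgpp2 fell by 0.75 ± 0.21 and 2.04 ± 0.19. The receptor S1pr1 gave 0.05 ± 0.13 (95% interval -0.24 to 0.33).

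Some repressors of the circadian clock rose and 3 genes of its activating arm fell. Of 21 clock genes 7 were higher and 3 lower (median 0.30), or 33.3% and 14.3% against 10.8% and 17.7% over all genes. The higher count was 3 without GFP-AL replicates 2 and 3 and GFP-Veh replicate 2 and the lower one 1 with log2 depth as a covariate. Npas2, of the activating arm, fell from 4.1 to 1.45 FPKM (-1.07 ± 0.19), while its partner Arntl gave -1.15 ± 0.29 and Clock -0.48 ± 0.16. Arntl was not called with log2 depth as a covariate (adjusted p = 0.108); Clock was not called with log2 depth as a covariate, in a fit of only the 10 libraries or without GFP-Veh replicate 1, 3, 4 or 5 (adjusted p = 0.0533 to 0.0821). The repressors Cry1, Ciart and Bhlhe40 rose by 0.85 ± 0.13, 1.23 ± 0.26 and 0.97 ± 0.19. Per1 and Nr1d1 (0.46 ± 0.22, adjusted p = 0.129) were not called. The hour at which each mouse was killed is given by no label.

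Immediate early genes were uneven. Of 28 members 8 were higher and 1 lower (median 0.47). Junb, a subunit of the AP-1 factor, read 42.9, 45.1, 35.6, 35.4 and 48 FPKM in GFP-Veh replicates 1 to 5 and 118, 300.2, 337, 266 and 91.3 in GFP-AL replicates 1 to 5. The 5 drug libraries lay above the 5 saline libraries (log2 fold change 2.23 ± 0.41, adjusted p = 0.00115). Ier3 went from 43.5 to 286 FPKM (2.62 ± 0.22) and Fosl1, another AP-1 subunit, from 0.394 to 10.4 (2.75 ± 0.34). The classic early gene Fos read 14.5, 13.7, 9.43, 8.51 and 16.8 FPKM in GFP-Veh replicates 1 to 5 and 19.1, 59.7, 45.3, 54.7 and 8.99 in GFP-AL replicates 1 to 5 and was not called (adjusted p = 0.222), its GFP-AL libraries spreading from within the GFP-Veh range to well above it. Egr1 (1.33 ± 0.62, adjusted p = 0.121) and Jun (-0.69 ± 0.32, adjusted p = 0.115) were not called either.

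Genes of cell death and of the cytoskeleton were mostly higher where called. Of 31 apoptosis and necroptosis genes 15 were higher and 0 lower (median 0.40; 2 lower at an unadjusted p below 0.05): the receptor of TWEAK, Tnfrsf12a, rose from 45.6 to 109 FPKM (1.22 ± 0.20), Fas by 1.07 ± 0.28 and the survival gene Bcl2a1b, one of several near-identical copies, by 1.46 ± 0.23. Of 37 cytoskeletal genes 13 were higher and 1 lower (median 0.24), led by the tubulin Tubb6, which read 7.23, 12.3, 9.31, 6.04 and 6.45 FPKM in GFP-Veh replicates 1 to 5 and 63.1, 219, 50.1, 87.7 and 56.7 in GFP-AL replicates 1 to 5 without overlap (log2 fold change 3.18 ± 0.35, adjusted p = 2.50e-05), and by Rnd1 (1.78 ± 0.24). Of 27 p53 targets 5 were higher and 4 lower (median 0.34), or 18.5% and 14.8% against 10.8% and 17.7% over all genes. Gadd45b gave 1.47 ± 0.19 and Cdkn1a was not called (0.37 ± 0.25, adjusted p = 0.297). For p53 targets the higher count was 3 with log2 depth as a covariate or without GFP-Veh replicate 4, and 9 with median-of-ratios scaling or with a replicate block, whereas the lower one was 2 with no filter, with median-of-ratios scaling, in a fit of only the 10 libraries, with log2 depth as a covariate, without GFP-Veh replicate 3, 4 or 5 or without GFP-AL replicate 2. Most mitotic genes, Top2a among them, were below the filter. Of the 22 cell cycle genes tested 2 were higher and 3 lower (median 0.05), or 9.1% and 13.6% against 10.8% and 17.7% over all genes. The lower cell cycle count was 1 with log2 depth as a covariate or without GFP-AL replicates 2 and 3 and GFP-Veh replicate 2.

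Housekeeping classes differed in how far 1 library decided them. Of 42 splicing factors 1 was higher and 15 lower (median -0.22): Hnrnpa2b1 fell by 0.81 ± 0.16, Srsf7 by 0.71 ± 0.12 and Tra2a by 0.63 ± 0.11. Of 80 cytosolic ribosomal protein genes 12 were higher and 2 lower; the higher count was 3 to 7 in a fit of only the 10 libraries, with no filter, without GFP-Veh replicate 1, 3, 4 or 5 or without GFP-AL replicate 2 or 3, and 19 to 55 with median-of-ratios scaling, without GFP-AL replicates 2 and 3 and GFP-Veh replicate 2, without GFP-Veh replicate 2 or without GFP-AL replicate 4. Rplp0 rose by 0.92 ± 0.16 and was called in every fit. Of 47 proteasome genes 9 were higher and 3 lower; the higher count was 3 to 5 in a fit of only the 10 libraries, without GFP-Veh replicate 1, 3, 4 or 5 or without GFP-AL replicate 3, and 15 to 26 with median-of-ratios scaling, without GFP-AL replicates 2 and 3 and GFP-Veh replicate 2 or without GFP-Veh replicate 2, and the lower one 1 with log2 depth as a covariate or without GFP-AL replicate 3. GFP-Veh replicate 2 had the highest medians of both lists within its group, 0.60 and 0.42 above the group mean on the log2 scale. Nuclear genes of oxidative phosphorylation gave 1 higher and 4 lower of 81, and none of the 13 mitochondrially encoded genes was called by limma (0 higher and 0 lower at an unadjusted p below 0.05). The nuclear lower count was 1 to 2 without GFP-AL replicates 2 and 3 and GFP-Veh replicate 2, with median-of-ratios scaling, in a fit of only the 10 libraries, with log2 depth as a covariate, without GFP-Veh replicate 2 or 5 or without GFP-AL replicate 1 or 3.

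Some of the largest shifts in FPKM fell outside these pathways. Ctla2a, a cathepsin inhibitor of endothelium, read 120.0, 158, 107, 101 and 93.1 FPKM in GFP-Veh replicates 1 to 5 and 723, 1689.9, 935, 747 and 605 in GFP-AL replicates 1 to 5. Pltp, the phospholipid transfer protein, read 436, 794, 581, 527 and 462 FPKM in GFP-Veh replicates 1 to 5 and 198, 144, 129, 229.9 and 193 in GFP-AL replicates 1 to 5. Neither overlapped between groups (log2 fold change 2.93 ± 0.32, adjusted p = 2.19e-05 for Ctla2a; log2 fold change -1.64 ± 0.19, adjusted p = 3.29e-05 for Pltp). Alpl, the alkaline phosphatase of brain endothelium, read 63.7, 112, 91.1, 86.5 and 84.5 FPKM in GFP-Veh replicates 1 to 5 and 15.6, 8.53, 15.6, 17.2 and 17.7 in GFP-AL replicates 1 to 5, all GFP-AL libraries being below the lowest GFP-Veh library. Ttr, the choroid plexus carrier of thyroxine, had the largest loss in FPKM, from 5122 ± 2260.2 FPKM in GFP-Veh to 2648 ± 417 in GFP-AL (SD, n = 5; log2 fold change -0.88 ± 0.23, adjusted p = 0.0117). Ttr was not called with log2 depth as a covariate or with no filter (adjusted p = 0.0751 to 0.097).

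Markers of tissue around the vessels were lower in part. Of 10 choroid plexus markers 8 were lower, with a sum of 3900.2 to 9463 FPKM over the GFP-Veh libraries and 2085 to 3230.2 in GFP-AL, and of 6 ependymal markers 3, with a sum of 48.3 to 79.5 FPKM over the GFP-Veh libraries and 28.9 to 46.6 in GFP-AL, although the protocol removed choroid plexus. Of 9 oligodendrocyte markers 6 were lower, among them Mag (-1.19 ± 0.27) and Opalin (-1.83 ± 0.41), while Mbp (-0.15 ± 0.26, adjusted p = 0.688) and Mobp (-0.07 ± 0.26, adjusted p = 0.867) were not called; the sum was 694 to 1035 FPKM over the GFP-Veh libraries and 341 to 894 in GFP-AL. Of 6 tested precursor markers 5 were lower, Olig1 by 1.06 ± 0.21. Among 8 astrocyte markers the water channel Aqp4 fell by 0.95 ± 0.24 and the glutamate carrier Slc1a2 by 0.68 ± 0.15, Gfap was higher (log2 fold change 0.78 ± 0.22, adjusted p = 0.0151) and 5 were not called, with a sum of 475 to 643 FPKM over the GFP-Veh libraries and 352 to 647 in GFP-AL. Gfap was not called with log2 depth as a covariate or with quantile normalization (adjusted p = 0.0647 to 0.158). By limma no neuron marker was called; 0 were higher and 2 lower at an unadjusted p below 0.05. The part of these tissues in the lower genes was not tested.

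The 5 GFP-AL libraries differed in which lists they moved most. Replicate 2 had the highest acute-phase median, 3.13 above the GFP-Veh mean, against 1.0 in replicate 1, the lowest. It also had the highest neutrophil median (2.72; 0.25 in replicate 1) and the lowest capillary median (-1.6; -0.24 in replicate 4, the highest). Replicate 3 had the highest red cell median (3.32) and the lowest oligodendrocyte median (-1.38). The heat shock median was lowest in replicate 1 (-0.82) and highest in replicate 2 (-0.24). For the chemokine, complement, NF-kappaB and venous lists all 5 GFP-AL medians lay above all 5 GFP-Veh medians, and for the capillary and heat shock lists all 5 lay below.

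**Figure D4:**
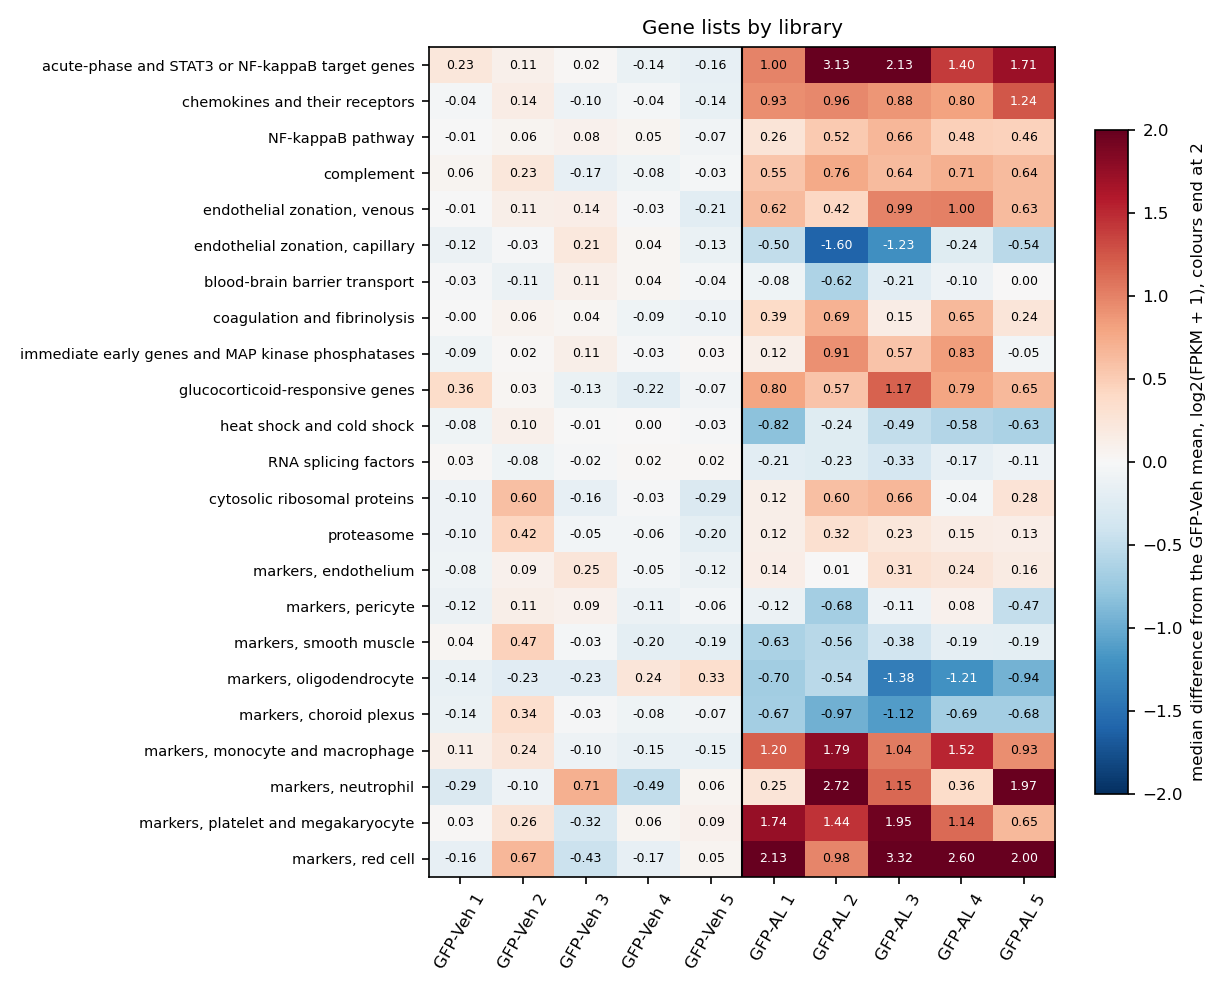
Median difference from the GFP-Veh mean on the log2(FPKM + 1) scale for 23 gene lists in the 5 GFP-Veh and 5 GFP-AL libraries, red above and blue below. Acute-phase medians run from 1.0 to 3.13 across the GFP-AL libraries, and GFP-Veh replicate 2 stands out for ribosomal and proteasome genes.

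**Figure D5:**
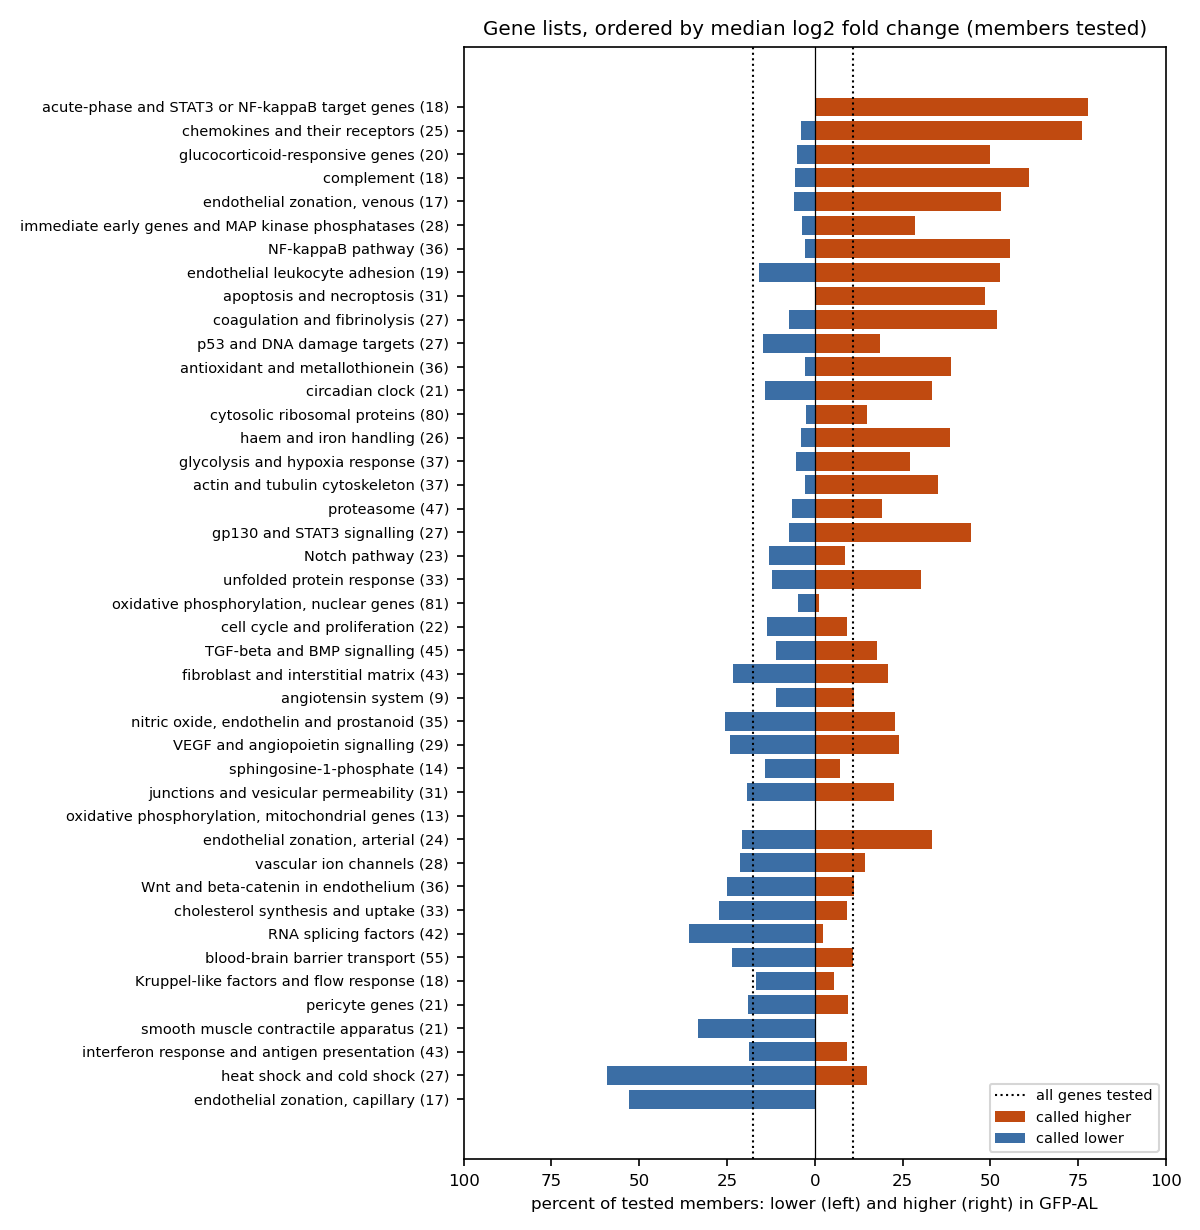
Percent of tested members called higher (red, right) and lower (blue, left) in GFP-AL for 43 gene lists, ordered by median log2 fold change, with dotted lines at the shares over all genes (10.8% higher, 17.7% lower). The acute-phase list has the highest median (2.0) and the capillary list the lowest (-0.72), the lists having been chosen with earlier results known.

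The authors' deposited table for this contrast lists 1764 genes, 863 higher and 901 lower, all with an absolute log2 fold change above 1. Of these, 1071 were among the genes tested here, and 692 were below the filter. Every listed gene that was tested had the sign of the authors' deposited table, and 95.9% were called, while 27.5% of the genes called here are in the authors' deposited table. No fold threshold was set for calls here. Of the 617 genes called here with an absolute log2 fold change of at least 1, the authors list 606. Both use the same libraries, so this compares methods and is not a second measurement.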

How the data were processed

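RNA of cerebral vessels was measured in 15 mouse libraries, 5 a group. Per the file headers the authors deposited FPKM values for 22557 genes; reads were aligned with STAR 2.5.1b to mm8, per the submitters' processing notes, and no label or header names the counting program or its use of strand. Some 5.99% of the deposited values were below 0 (lowest -0.46) and were set to 0, and rows sharing a symbol were summed, leaving 22526 symbols. Genes averaging 1 FPKM or more were tested on log2(FPKM + 1) with limma 3.58.1 (R 4.3.3), all 3 groups in the fit, empirical Bayes with trend, and Benjamini-Hochberg adjustment over the 13082 genes. Depth was estimated from the step of 1 fragment in low values; 43.3% to 63.4% of values lay within 0.1 of a whole fragment, so it is approximate. The fits were tested on simulated data. Symbols and exon overlap came from GENCODE M21 (22400 IDs matched): 75 of the 255 named genes share exon positions with another gene, such as Nos3 with Atg9b, Pltp with Ctsa and Psmb9 with Tap1, whose reads cannot be told apart without strand.

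Genes were named by rule: the 10 highest and 10 lowest fold changes without overlap, the 10 largest gains and losses in FPKM, up to 3 called members a direction in each list, and starred members and cell type markers. Angpt1, Axin1, B2m, C1qa, C1qc, Csf3, Cx3cl1, Ifitm3, Il11, Il4ra, Isg15, Myd88, Timp1, Tlr2 and Vegfb were chosen after their values were seen. Some genes that the rule names are not reported here. Members and lists were chosen with earlier results of these data known. Other settings tried were only the 10 libraries, quantile normalization, scaling by median ratios, a pseudocount of 0.1, a minimum mean of 5 FPKM or no minimum, a replicate block, log2 depth as a covariate and leaving out each replicate; leaving out GFP-AL replicates 2 and 3 with GFP-Veh replicate 2 was added after seeing the data. The authors' deposited log2 fold changes and p-values for this contrast (adjusted p up to 0.0498) served only for the count of shared genes.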

Additional observations from a re-analysis of the deposited data

Results flagged for a closer look

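In each group of 5 libraries the highest and lowest value of every named gene was compared with its nearest neighbour. In 39 of 510 such comparisons a value lay apart by more than Dixon's 95% critical value for the gap over the range, 0.71. Chance alone places about 1 in 20 groups beyond that value, so many of the values listed here may be chance. GFP-Veh replicate 1 was the highest for Cd163 at 2.995 FPKM (others 1.6 to 1.71) and Tlr4 at 1.8 FPKM (others 1.29 to 1.43). On the high side, GFP-Veh replicate 2 stood apart for Acta2 at 504 FPKM (others 299 to 341), Gja4 at 56.2 FPKM (others 33 to 37.6), Hba-a1 at 1222 FPKM (others 392 to 540.1) and Hba-a2 at 867 FPKM (others 275 to 383). GFP-Veh replicate 2 was the highest for Ifi27l2a at 35.6 FPKM (others 7.74 to 11.6), Ifitm1 at 55.6 FPKM (others 26.9 to 33.2), Kcnj8 at 38.6 FPKM (others 26.6 to 27.6) and Tagln at 346 FPKM (others 173 to 209). Standing apart on the low side in GFP-Veh replicate 2 were Asah2 at 5.24 FPKM (others 7.69 to 8.22), Ikbkb at 4.17 FPKM (others 5.88 to 6.69) and Slc1a2 at 40.2 FPKM (others 55.6 to 63). GFP-Veh replicate 3 was the highest for Abcb1a at 188 FPKM (others 142 to 146), Clock at 4.1 FPKM (others 3.28 to 3.43), Marveld2 at 2.83 FPKM (others 1.76 to 1.92) and Rgs5 at 1086 FPKM (others 762 to 810.4). On the high side, GFP-Veh replicate 3 stood apart for Tek at 87.7 FPKM (others 61.5 to 67.3). GFP-Veh replicate 3 was the lowest for Gfap at 66 FPKM (others 92.7 to 100.4), Ptgs1 at 2.46 FPKM (others 3.1 to 3.35) and Tm7sf2 at 3.02 FPKM (others 4.42 to 4.81). Standing apart on the low side in GFP-AL replicate 1 were Acta2 at 223 FPKM (others 296 to 309.6) and Serpina3n at 227 FPKM (others 315 to 356). GFP-AL replicate 2 was the highest for Lyz2 at 318 FPKM (others 211 to 228), Slc16a3 at 23.5 FPKM (others 5.17 to 8.04) and Srxn1 at 33.5 FPKM (others 18 to 19.6). On the low side, GFP-AL replicate 2 stood apart for Alpl at 8.53 FPKM (others 15.6 to 17.7), Lifr at 3.95 FPKM (others 6.66 to 7.94) and Slc22a8 at 25.8 FPKM (others 67.7 to 81.8). GFP-AL replicate 3 was the highest for Birc3 at 13.6 FPKM (others 7.2 to 8.63), Fas at 141 FPKM (others 59.6 to 72.9), Rbm3 at 14.5 FPKM (others 9.56 to 10.8) and Slc2a1 at 1979 FPKM (others 1105 to 1274). Standing apart on the low side in GFP-AL replicate 3 were Clock at 0.936 FPKM (others 2.39 to 3.002), Col1a1 at 10.3 FPKM (others 19.2 to 24.1), Hnrnpa2b1 at 19.2 FPKM (others 34.7 to 38.2) and Spp1 at 55.9 FPKM (others 119 to 147). GFP-AL replicate 3 was the lowest for Ttr at 1945 FPKM (others 2685 to 3055). On the low side, GFP-AL replicate 4 stood apart for Vegfb at 11.9 FPKM (others 16.7 to 19.1).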

How the results depend on the processing

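Over all genes the number called was 2174 (1212 lower) when a mean of at least 5 FPKM was required, which tests 7382 genes, and 2359 (1345 lower) with log2 depth as a covariate. Leaving out 1 replicate at a time gave 2840 (without GFP-Veh replicate 4) to 4437 (without GFP-Veh replicate 2) calls, 1111 to 1777 higher and 1697 to 2660 lower. No gene named here changed direction with a call in any alternative, and 29 of the 198 named and called genes lost the call in at least 1 alternative, as given beside them. Median-of-ratios scaling moved the share of calls that were higher from 37.9% to 51.8%, and quantile normalization to 47.2%. With a replicate block 3783 genes were called (1440 higher, 2343 lower); same-numbered GFP-AL and GFP-Veh libraries correlated between -0.11 and 0.26, and only numbers 2 and 5 matched each other best, so the numbers are not taken to pair samples. Estimated depth was lower in 4 of 5 GFP-Veh libraries, and at these depths a gene below 1 FPKM rests on few fragments.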

Other observations

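Genes with large fold changes not yet given include the matrix protease Adamts9, which read 1.68, 0.483, 1.32, 1.1 and 1.25 FPKM in GFP-Veh replicates 1 to 5 and 17.5, 56.9, 17.4, 27.4 and 13.5 in GFP-AL replicates 1 to 5, and Chil3, a chitinase-like protein and one of the monocyte and macrophage markers, which read 3.81, 2.98, 14.4, 3.53 and 5.16 FPKM in GFP-Veh replicates 1 to 5 and 54.1, 113, 65.2, 48.2 and 66.3 in GFP-AL replicates 1 to 5. Both were higher in every drug library than in any saline library. On the lower side, Akr1c14, an aldo-keto reductase, read 9.34, 12.8, 18.5, 14.6 and 10.9 FPKM in GFP-Veh replicates 1 to 5 and 2.22, 0.95, 0.749, 4.73 and 3.09 in GFP-AL replicates 1 to 5, and Cyp2e1, a cytochrome P450, read 10.5, 23.3, 22.4, 23.8 and 13.8 FPKM in GFP-Veh replicates 1 to 5 and 5.42, 0.573, 0.616, 2.89 and 4.06 in GFP-AL replicates 1 to 5. In both the 5 drug libraries lay below the 5 saline libraries, with log2 fold changes of -2.19 ± 0.30 and -2.57 ± 0.39 by limma.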
